A study of Mus musculus with 12 samples.

Results

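The immunity-related GTPases (IRG proteins) are interferon-inducible GTPases through which mouse cells resist microbes that live inside vacuoles. Described here are 7 of their genes, Irgm1, Irgm2, Igtp, Iigp1, Ifi47, Tgtp1 and Tgtp2, found by symbol among the 56748 genes of the unnormalized count matrix. All 7 were present, and all 7 passed the filter on low counts that left 15033 genes for testing. Tgtp1 passed it only through the libraries that received IFNβ, so a difference was built into its place among the genes tested. Each was measured by bulk RNA sequencing in 12 libraries of M2-like bone marrow-derived macrophages (BMDM).

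The family has a pair of branches. Irgm1, Irgm2 and Igtp (also called Irgm3) carry an altered nucleotide-binding motif, sit on the membranes of the cell's own organelles and act as regulators that keep the other branch inactive there. Iigp1 (Irga6), Ifi47 (Irgd) and the near-identical Tgtp1 and Tgtp2 (Irgb6) carry the standard motif and act as effectors, which load onto the vacuoles of parasites such as Toxoplasma gondii and of bacteria such as Chlamydia trachomatis and help to break them open. Interferon-γ is the best known inducer of both branches, and type I interferons act on many of the same genes.

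BMDM were grown from marrow of C57BL/6J mice with M-CSF at 20 ng/mL and polarized with IL4 at 10 ng/mL for 48 hours, so all 4 conditions share IL4. The macrophages were then kept for 72 hours in plain medium (untreated control), in supernatant of Dox-treated YUMM5.2 eGFP cells (eGFP supernatant), in supernatant of Dox-treated YUMM5.2 Ifnb1eGFP cells brought to 1500 pg/mL IFNβ (Ifnb1eGFP supernatant), or with recombinant IFNβ (rIFNβ) matched to that concentration. YUMM5.2 is a mouse melanoma line. Its derivatives carry eGFP, with or without Ifnb1, on a lentivirus behind a promoter that Dox switches on, and were given Dox at 1 µg/mL for 72 hours before their supernatant was taken, so both supernatants come from Dox-treated cells and neither is plain medium. The eGFP supernatant was diluted in the same proportion as the Ifnb1eGFP supernatant, and each condition has 3 libraries, from 3 mice per the series' description. The macrophages themselves carry no transgene.

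Libraries held 31526034 to 45348457 counts, and levels are given as CPM, counts scaled to a common library total of 1e+06 by TMM factors. Of 6 macrophage markers none was at 0, and their summed level was 14060 to 15210 CPM in untreated control, 17820 to 18390 with eGFP supernatant, 9155 to 9286 with Ifnb1eGFP supernatant and 8515 to 8618 with rIFNβ. The sum followed Lyz2 and Itgam, which fell by 1.59 and 1.99 on the log2 scale between the supernatants (edgeR adjusted p = 8.271e-10 and 1.247e-10), whereas Adgre1, Cd68 and Mertk rose by 0.21, 0.35 and 0.32 (adjusted p = 0.001571, 0.00407 and 0.01107) and Csf1r gave 0.04 (adjusted p = 0.4991). With rIFNβ the same 2 fell and the same 3 rose, and the part of these shifts in the results on the GTPases was not tested. Of the IL4-response markers, Mrc1, Chil3, Retnla and Arg1 had means of 660, 72.8, 60.2 and 0.456 CPM in untreated control. The means were 757, 74.9, 63.4 and 0.662 CPM with eGFP supernatant and 825, 128, 56.3 and 0.456 CPM with Ifnb1eGFP supernatant. Marker lists for T and NK cells, B cells, neutrophils, dendritic cells and melanoma cells each summed to at most 1.61 CPM in every library. In bulk RNA, a change in the number of cells that express a gene and a change in RNA per cell cannot be told apart. One library stood apart from its group for these genes, the eGFP supernatant replicate 2, and results that rest on it are given with and without it.

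RefSeq promoters were at hand for 6 of the 7 genes, each running from 250 bases before the gene's start to 50 after it. They were searched on both strands for the core of the interferon-stimulated response element (GAAANNGAAA), the element through which type I interferons act on many genes, and for a STAT-type core (TTCNNNGAA). The sequences below are shown because they hold every match of either core; the capitals mark the cores, and positions count back from -1, the base before the RefSeq start.
Irgm1: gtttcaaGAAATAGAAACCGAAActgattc
Irgm2: ccatTTCCAGGAActGAAACTGAAAgctgt
Igtp: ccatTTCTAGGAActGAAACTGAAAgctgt
Tgtp1: ccatTTCCAGGAAtcGAAACTGAAAcctac
Tgtp2: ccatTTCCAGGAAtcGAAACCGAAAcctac

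In Irgm2, Igtp, Tgtp1 and Tgtp2 the STAT-type core began exactly 11 bases before the interferon-stimulated core, with the same spacing in all 4. The 30 bases shown were identical at 29 positions between Irgm2 and Igtp and at 29 between Tgtp1 and Tgtp2, and at 23 to 25 across these pairs. Irgm1 had a different arrangement, 2 interferon-stimulated cores that overlap one another and no STAT-type core. The Ifi47 promoter held neither core; that says only that these letters are not in its window. Among 32851 RefSeq promoters of the same length, 3.44% held the interferon-stimulated core, 8.3% the STAT-type core and 0.454% both. A match is a description of the sequence and not a measured binding site.

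The runs lie on GRCm39 at chr11:48762255-48762284 for Irgm1 (minus strand), chr11:58105724-58105753 for Irgm2 (plus), chr11:58090333-58090362 for Igtp (plus), chr11:48883136-48883165 for Tgtp1 (minus) and chr11:48955095-48955124 for Tgtp2 (minus). Starts differ between annotations. By GENCODE the runs of Irgm1, Igtp and Tgtp1 fall at least in part inside exons of some of the gene's own transcripts, the run of Irgm2 falls in an intron of a longer Irgm2 transcript, and that of Tgtp2 lies in no exon. With GENCODE transcript starts in place of the RefSeq ones, the interferon-stimulated core was found at 5 of 8 starts of Irgm1, 3 of 3 of Irgm2, 2 of 5 of Igtp, 2 of 6 of Ifi47, 1 of 3 of Tgtp1 and 2 of 2 of Tgtp2.

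Of the 7 genes, 6 lie on chromosome 11 and 1 on chromosome 18 (positions from GENCODE on GRCm39, all protein-coding). One cluster of 235019 bases holds Irgm1 (chr11:48752795-48763164, minus strand), Tgtp1 (chr11:48876154-48884999, minus), Tgtp2 (chr11:48948021-48955033, minus) and Ifi47 (chr11:48967412-48987813, plus). A second place holds Igtp (chr11:58089840-58098417, plus) and Irgm2 (chr11:58090444-58113615, plus), whose annotations overlap on the same strand. Iigp1 lies alone among the 7 on chromosome 18 (chr18:60506680-60525706, plus).

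To see what tumoral IFNβ did to the family, macrophages in Ifnb1eGFP supernatant were first set beside those in eGFP supernatant. All 7 genes were higher with Ifnb1eGFP supernatant, and the 3 libraries of each condition did not overlap for any of them. The regulators rose 8.8- to 13.3-fold, Ifi47 13.0-fold, and Iigp1, Tgtp2 and Tgtp1 101-, 107- and 281-fold. In the quasi-likelihood test of edgeR, adjusted by Benjamini-Hochberg over all genes tested, 7 of 7 passed an adjusted p of 0.05 and 7 of 7 also passed a log2 fold change of 2 with an adjusted p of 0.01 (6 of 6 without Tgtp1). Against these counts stands the background over all 15033 genes tested, of which 30.1% were higher at an adjusted p of 0.05, 2.77% were higher past the stricter threshold and 32.4% were higher with no overlap between groups.

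Among the regulators, Irgm1, which is needed for resistance to mycobacteria and other microbes, had 54.3, 45.2 and 42.0 CPM in the untreated control libraries. In eGFP supernatant it had 53.8, 109.9 and 47.4 CPM. With Ifnb1eGFP supernatant it had 690.0, 559.8 and 611 CPM, and with rIFNβ 621, 573 and 605 CPM. The highest library without IFNβ was thus eGFP supernatant replicate 2, far under the lowest with IFNβ. The log2 fold change between the supernatants was 3.14 (95% interval 2.55 to 3.73, adjusted p = 1.695e-06 by edgeR's quasi-likelihood test).

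Irgm2, a second membrane-bound regulator, stood at 22.5, 19.0 and 19.1 CPM in the untreated control libraries and at 24.0, 45.7 and 21.1 CPM in those given eGFP supernatant. Ifnb1eGFP supernatant took it to 354, 298 and 312 CPM and rIFNβ to 330.2, 313 and 306 CPM. Its log2 fold change between the supernatants was 3.41 (2.88 to 3.94, edgeR adjusted p = 3.37e-07). Igtp, the third regulator, stood at 12.5, 11.6 and 11.4 CPM without any addition, at 13.6, 25.0 and 11.7 CPM in eGFP supernatant, at 246, 204 and 220.5 CPM in Ifnb1eGFP supernatant and at 234, 213 and 216 CPM with rIFNβ. For both, as for Irgm1, eGFP supernatant replicate 2 was the highest library without IFNβ and lay under the lowest with it. For Igtp the log2 fold change was 3.73 (3.23 to 4.23, edgeR adjusted p = 9.89e-08).

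Among the effectors, Ifi47 was closest to the regulators. Untreated control libraries held 13.1, 11.8 and 12.2 CPM of it and those in eGFP supernatant 13.1, 35.6 and 12.3 CPM. In Ifnb1eGFP supernatant there were 287, 245 and 263 CPM, and with rIFNβ 275, 252 and 257 CPM. Libraries with and without IFNβ were again apart. The log2 fold change between the supernatants was 3.70 (2.97 to 4.43, edgeR adjusted p = 2.43e-06).

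Iigp1, an effector that accumulates on the vacuoles of Toxoplasma gondii, was barely detected without IFNβ, with 0.668, 0.673 and 0.3785 CPM in untreated control, which are 21, 23 and 16 counts. With eGFP supernatant it had 1.31, 5.65 and 0.502 CPM (52, 232 and 20 counts). Ifnb1eGFP supernatant brought it to 284, 217 and 262 CPM and rIFNβ to 249.5, 234 and 262 CPM. The lowest library with IFNβ was above the highest without it by far more than the spread within either condition, and the log2 fold change between the supernatants was 6.66 (5.54 to 7.78, edgeR adjusted p = 6.518e-07).

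Tgtp2, an effector of the same branch, had 1.84, 1.32 and 2.06 CPM (58, 45 and 87 counts) in the untreated control libraries and 2.78, 11.7 and 1.73 CPM (110, 479 and 69 counts) in eGFP supernatant. It had 650.2, 526 and 557 CPM with Ifnb1eGFP supernatant and 610.1, 568 and 565 CPM with rIFNβ, so that the libraries with and without IFNβ lay far apart. The log2 fold change between the supernatants was 6.74 (5.54 to 7.93, edgeR adjusted p = 9.959e-07).

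Tgtp1 rested on the fewest counts without IFNβ. It had 6, 5 and 4 counts in untreated control (0.191, 0.146 and 0.0946 CPM) and 4, 14 and 3 counts with eGFP supernatant (0.101, 0.341 and 0.0753 CPM). Its level was 58.6, 38.8 and 52.0 CPM in the Ifnb1eGFP supernatant libraries and, with rIFNβ, 55.6, 44.1 and 49.98 CPM. Its log2 fold change between the supernatants was 8.13 (7.48 to 8.78, edgeR adjusted p = 1.969e-09), and the fold leans on the handful of counts in its denominator.

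**Figure D1:**
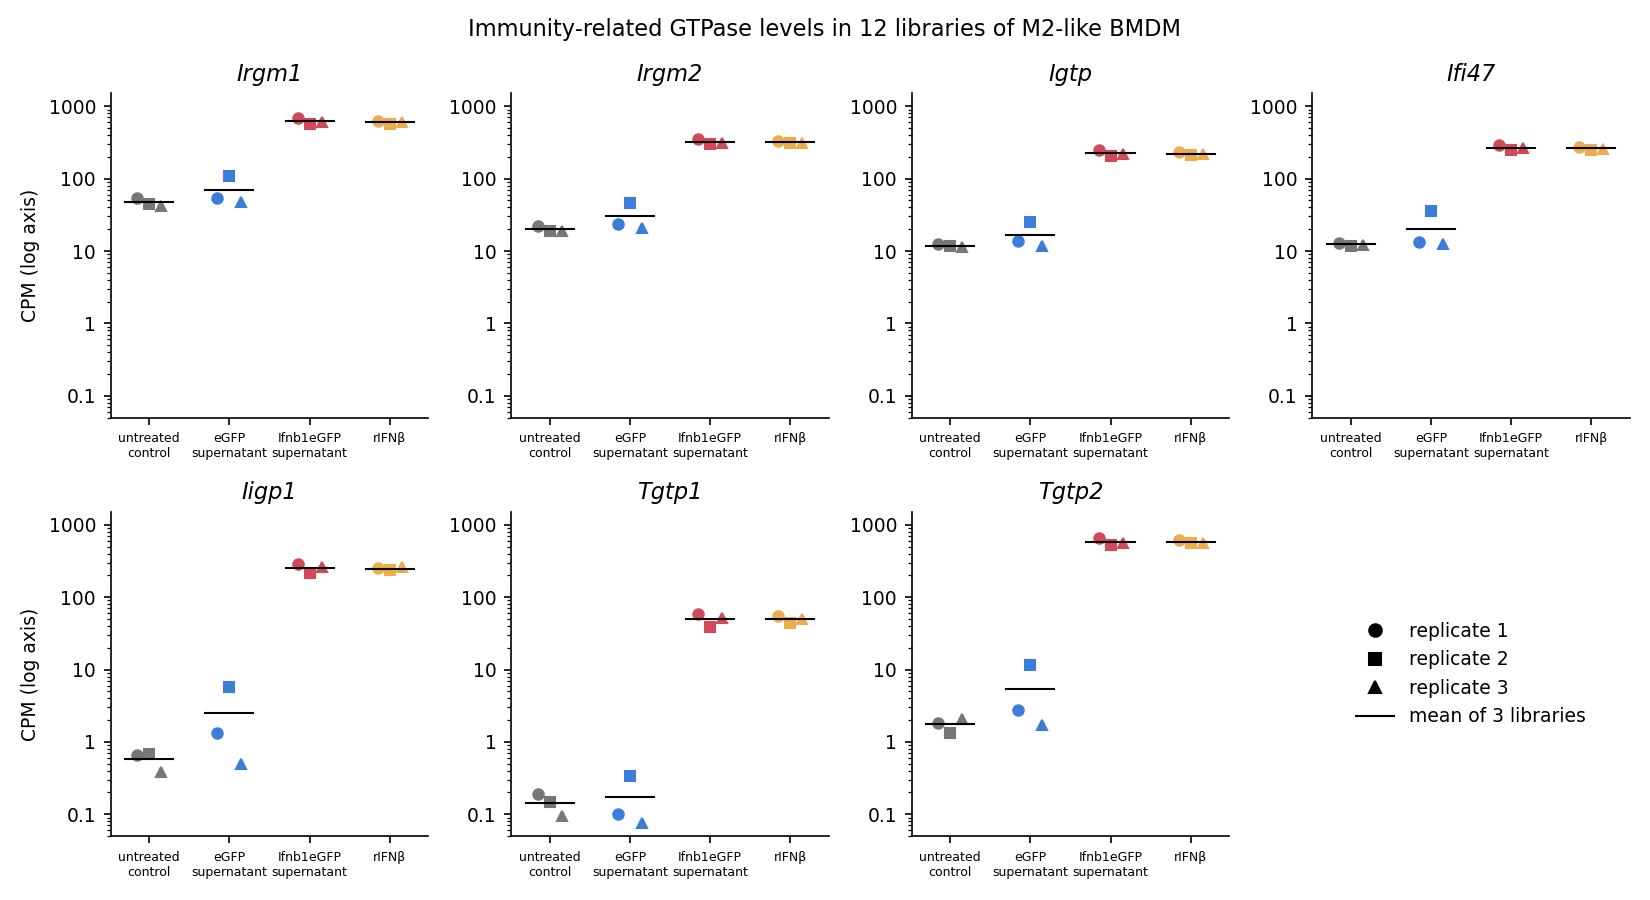
CPM of each gene (log axis, same range in every panel) in the 12 libraries by condition, with a symbol per replicate number and a bar at the mean of the 3 libraries. Libraries with IFNβ sit above all libraries without it for all 7 genes, and replicate 2 of the eGFP supernatant (blue square) is the highest of the 6 libraries without IFNβ in each panel.

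The reads of Tgtp1 and Tgtp2 can hardly be told apart. Of all 50-base words in the annotated Tgtp1 transcripts, 77.9% also occur in Tgtp2, and 85.8% of those of Tgtp2 occur in Tgtp1. The deposited values are expected counts, so the split between this pair is an estimate. Tgtp1 took 2.83 to 9.88% of the pair's counts in the libraries without IFNβ and 6.87 to 8.54% in those with it. When both were summed into a single gene, all comparisons of the pair kept their calls. The other 5 genes share fewer such words with any gene, from 0.271% for Irgm1 to 8.79% for Irgm2, whose main partner is Igtp. On the same strand, Igtp and Irgm2 share 162 exon bases, Tgtp1 and Gm12185 share 317, and Ifi47 and Or2v1 share 111, so reads there may count to either gene. On the opposite strand, the noncoding gene Gm74350 shares 497 exon bases with Irgm1 and Gm74477 shares 360 with Ifi47. A noncoding gene without a symbol shares 289 with Irgm2 there, and the pseudogene Gm12188 shares 106 with Ifi47. The library kit keeps strand, but the strand setting used for counting is not given in the sources used here.

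Next, rIFNβ was set beside the untreated control, to see what the cytokine does without tumour cell products. All 7 genes were higher with rIFNβ, again with no overlap between the 3 libraries of each condition. By edgeR's quasi-likelihood test 7 of 7 passed an adjusted p of 0.05 and 7 of 7 passed the stricter threshold (6 of 6 without Tgtp1). Over all genes tested, 30.7% were higher at an adjusted p of 0.05, 2.99% past the stricter threshold and 36.4% with no overlap.

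The regulators gave log2 fold changes of 3.67 for Irgm1 (95% interval 3.06 to 4.28), 3.97 for Irgm2 (3.43 to 4.52) and 4.23 for Igtp (3.71 to 4.74). Ifi47 gave 4.41 (3.64 to 5.17). The other effectors gave 8.79 for Iigp1 (7.45 to 10.13), 8.45 for Tgtp1 (7.77 to 9.13) and 8.37 for Tgtp2 (7.04 to 9.70). In folds, these are 12.7 for Irgm1, 15.7 for Irgm2, 18.7 for Igtp, 21.2 for Ifi47, 331 for Tgtp2, 350.1 for Tgtp1 and 442 for Iigp1. Their edgeR adjusted p values ran from 1.823e-09 for Tgtp1 to 7.6e-07 for Ifi47. The median log2 fold change of the 7 was 4.41 here and 3.73 between the supernatants (4.32 and 3.72 without Tgtp1), beside 0.04 and 0.03 over all genes tested.

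**Figure D2:**
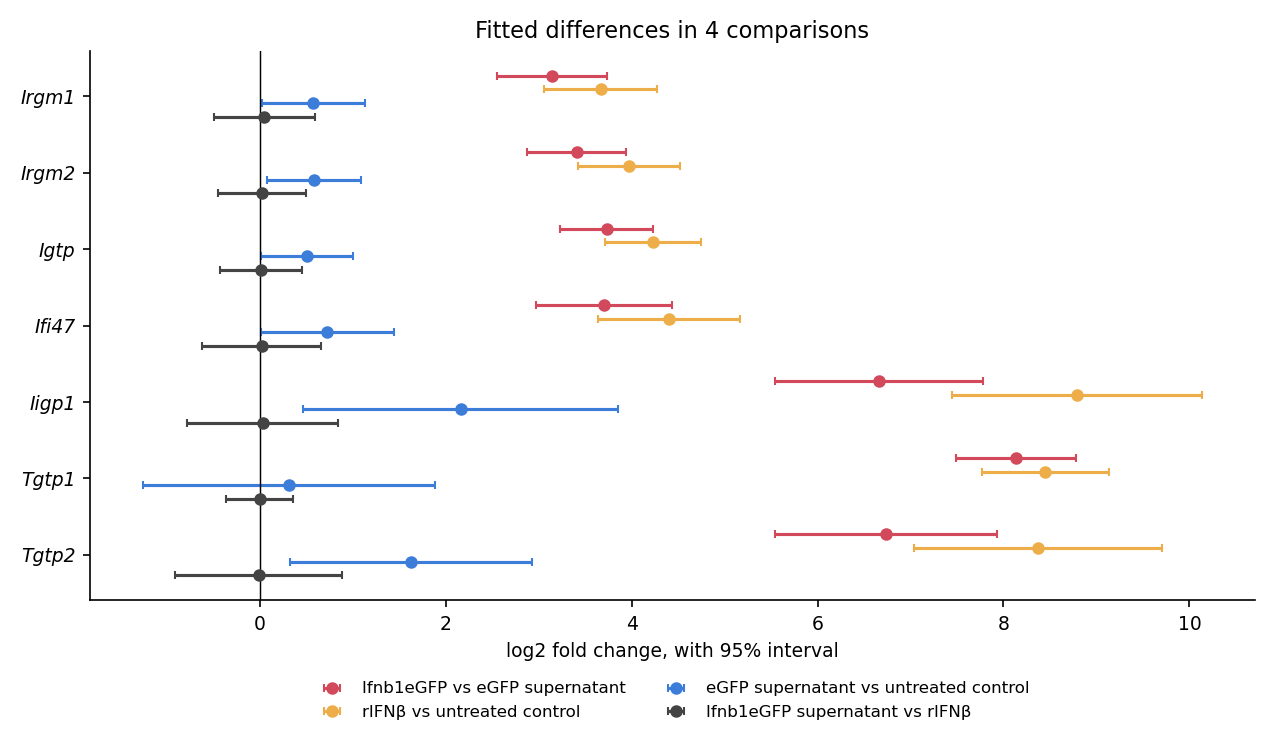
Fitted log2 fold change of each gene (x axis) with its 95% interval in 4 comparisons, from the model over all 12 libraries. The red and yellow points, the comparisons with IFNβ on one side only, lie between 3.14 and 8.79; the dark points, which compare both sources of IFNβ, lie between -0.01 and 0.05.

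Ifnb1eGFP supernatant and rIFNβ were then compared directly. They differ in the source of IFNβ and also in the products of Dox-treated tumour cells, which only the supernatant holds. The effects of these cannot be told apart here. None of the 7 genes differed between Ifnb1eGFP supernatant and rIFNβ at an adjusted p of 0.05, and all 7 pairs of groups overlapped. At an unadjusted p of 0.05 it was 0 of 7 as well, a count without a background over all genes. Over all genes, 0.16% were called in either direction, and the groups did not overlap for 8.22% that were higher and 4.58% that were lower. The log2 differences (Ifnb1eGFP supernatant minus rIFNβ) were 0.05 for Irgm1 (95% interval -0.49 to 0.59), 0.02 for Irgm2 (-0.45 to 0.50), 0.02 for Igtp (-0.42 to 0.45), 0.03 for Iigp1 (-0.78 to 0.85), 0.02 for Ifi47 (-0.62 to 0.66), -0.0018 for Tgtp1 (-0.36 to 0.36) and -0.0076 for Tgtp2 (-0.91 to 0.89). These intervals do not show that the sources act alike, and the raised eGFP library enters the spread that the model shares among conditions. With only the libraries of both IFNβ conditions in the fit, the standard error for Tgtp2 was 0.0875 in place of 0.41, and with eGFP supernatant replicate 2 left out it was 0.119.

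Added up, the 7 genes took 94.0 ± 9.66 CPM of an untreated control library, 146 ± 76.6 CPM in eGFP supernatant, 2312 ± 243 CPM in Ifnb1eGFP supernatant and 2278 ± 90.8 CPM with rIFNβ (mean ± SD, n = 3 libraries each). As a share of the library, the sum ran from 0.00872% in an untreated control library to 0.257% in an Ifnb1eGFP supernatant library. The sums with IFNβ overlapped between both sources and lay apart from all sums without it.

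The comparison of eGFP supernatant with untreated control asks what tumour cell supernatant does without added IFNβ. None of the 7 genes was called (edgeR adjusted p = 0.435 to 0.992), and all 7 pairs of groups overlapped, beside 0.299% of all genes called in either direction and 7.96% higher and 7.52% lower without overlap. Before adjustment 6 of 7 had a p under 0.05 by edgeR's test, and Tgtp1 had 0.666. The share of all genes under that unadjusted p was not counted, so the 6 of 7 has no background and is not read as a result. The log2 differences (eGFP supernatant minus untreated control) were 0.58 for Irgm1, 0.59 for Irgm2, 0.51 for Igtp, 0.73 for Ifi47, 2.16 for Iigp1, 1.63 for Tgtp2 and 0.32 for Tgtp1.

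All of these differences leaned on a single library. In eGFP supernatant replicate 2 the CPM were 2.17 times the mean of replicates 1 and 3 for Irgm1, 2.03 times for Irgm2, 1.98 times for Igtp, 2.80 times for Ifi47, 3.87 times for Tgtp1, 5.18 times for Tgtp2 and 6.23 times for Iigp1. Over all genes tested, 257 were at least 2-fold above and 293 at least 2-fold below in that library by the same measure. Without it, the log2 differences from untreated control became 0.10 for Irgm1, 0.16 for Irgm2, 0.10 for Igtp, 0.05 for Ifi47, 0.70 for Iigp1, 0.36 for Tgtp2 and -0.64 for Tgtp1, and the adjusted p values for these genes were 0.969 or higher by edgeR.

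In CPM the excess in that library ran from 0.253 for Tgtp1 to 59.3 for Irgm1, whose untreated control mean was 47.2 CPM. It came to 10.4% of the distance up to the Ifnb1eGFP supernatant mean for Irgm1, 9.07% for Ifi47, 7.75% for Irgm2 and 5.86% for Igtp, but to 1.87% for Iigp1, 1.64% for Tgtp2 and 0.509% for Tgtp1. So the genes with the largest ratios in this library were among those with the smallest excess by this measure. Other family genes were raised there too, 4.77-fold for Iigp1c, 3.49-fold for Gm12250 and 3.35-fold for F830016B08Rik, while Irgq stood at 0.967 of the mean of the other libraries. What set this library apart was not tested.

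**Figure D3:**
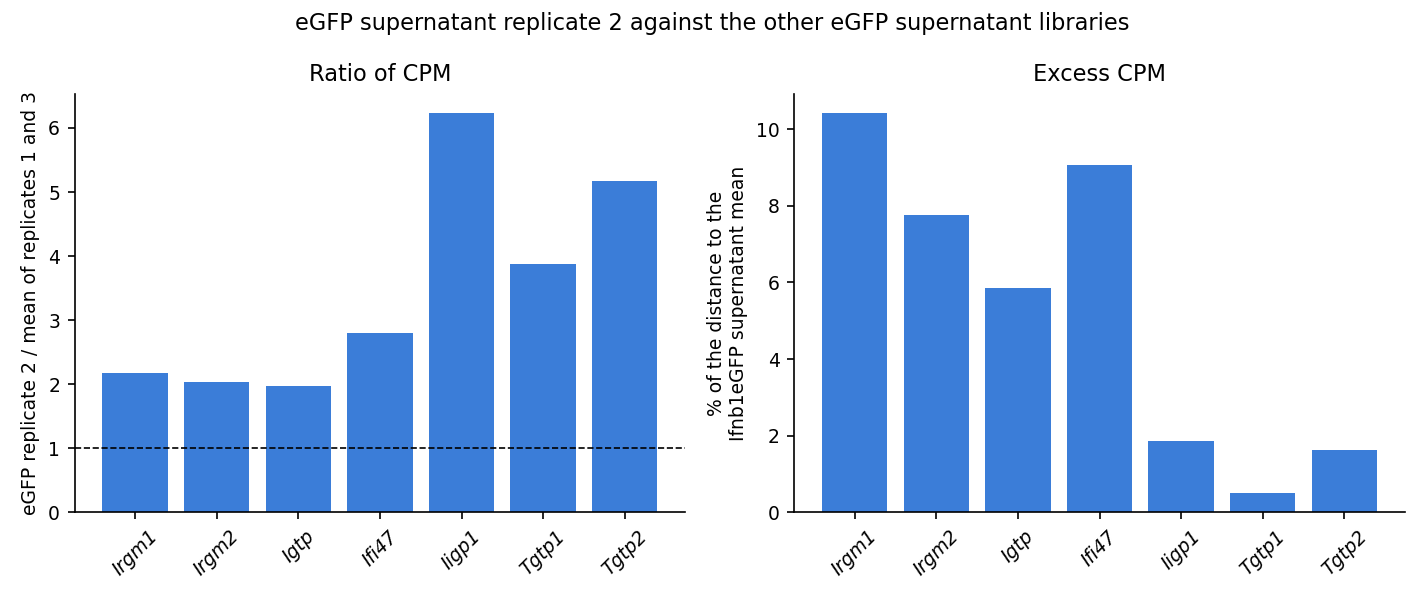
Left, CPM in eGFP supernatant replicate 2 divided by the mean of replicates 1 and 3 (dashed line at 1); right, the excess over that mean as a percentage of the distance to the Ifnb1eGFP supernatant mean. The ratio is highest for Iigp1 (6.23) and lowest for Igtp (1.98), and the excess runs from 0.509% for Tgtp1 to 10.4% for Irgm1.

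The same library decided the size of the difference between supernatants for part of the family. Without it, the log2 fold change of Ifnb1eGFP over eGFP supernatant was 8.13 for Iigp1 (6.66 with it), 7.9994 for Tgtp2 (6.74), 9.09 for Tgtp1 (8.13) and 4.38 for Ifi47 (3.70). For the regulators it was 3.62 for Irgm1, 3.83 for Irgm2 and 4.14 for Igtp, a shift of less than 1.5-fold. All 7 kept their calls past the stricter threshold.

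The effect of IFNβ inside and outside supernatant was compared as an interaction (the log2 fold change between the supernatants minus that of rIFNβ over untreated control). It was below 0 for all 7, from -2.13 for Iigp1 to -0.32 for Tgtp1, and none was called (edgeR adjusted p = 0.926 to 0.947, with 0% of all genes called). Unadjusted p values of edgeR's test were under 0.05 for 2 of them, Iigp1 (0.0316) and Tgtp2 (0.0448). The share of all genes under that unadjusted p was not counted here either. Without eGFP supernatant replicate 2 the interaction was -0.66 for Iigp1 and -0.37 for Tgtp2, and 0.64 for Tgtp1.

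Levels of different genes were compared as CPM per kb of exon. In untreated control the order was Irgm1 (7.42 ± 1.01 CPM per kb), Irgm2 (5.40 ± 0.528), Ifi47 (4.33 ± 0.234), Igtp (2.60 ± 0.122), Tgtp2 (0.592 ± 0.130), Iigp1 (0.0900 ± 0.0265) and Tgtp1 (0.0441 ± 0.0147; mean ± SD, n = 3 libraries), and no neighbours in this order overlapped. With eGFP supernatant the order of the means was the same, but all neighbours overlapped.

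With IFNβ the order changed. Tgtp2 moved from the fifth place to the first, with 197 ± 22.0 CPM per kb in Ifnb1eGFP supernatant and 198 ± 8.65 with rIFNβ, above every library of every other member. In Ifnb1eGFP supernatant Irgm1 (97.6 ± 10.3), Ifi47 (93.2 ± 7.44) and Irgm2 (85.9 ± 7.86) followed with overlapping libraries, then Igtp (49.1 ± 4.67), Iigp1 (40.0 ± 5.42) and Tgtp1 (15.2 ± 3.09). The order of the means with rIFNβ was identical, and there Irgm1 and Ifi47 overlapped. With the longest transcript as the length in place of all exons, 5 of 7 genes kept their place in each condition: Irgm2 and Ifi47 exchanged places without IFNβ, and Igtp and Iigp1 did so with it. The places of Tgtp1 and Tgtp2 rest on the estimated split of their reads.

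**Figure D4:**
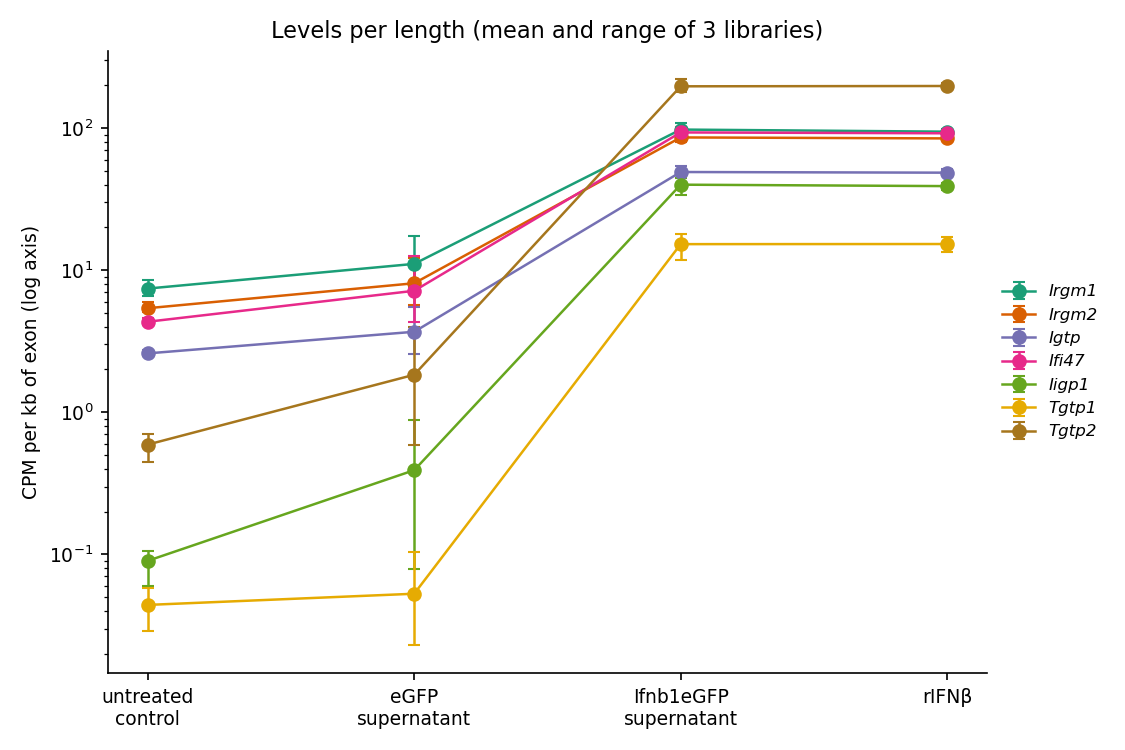
Mean level of each gene in CPM per kb of exon (log axis) by condition, with bars from the lowest to the highest of 3 libraries. Tgtp2 (brown) goes from 0.592 in untreated control, the fifth of 7, to 197 with Ifnb1eGFP supernatant, the first of 7.

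By how far their levels moved, the genes formed a pair of sets. As a measure of likeness, the root mean square difference of log2 CPM, each centred on its own mean over the 12 libraries, was used; it was 0.14 to 0.36 among Irgm1, Irgm2, Igtp and Ifi47 and 0.36 to 0.61 among Iigp1, Tgtp1 and Tgtp2, but 1.86 to 2.33 between the sets. Ifi47 is an effector by its motif, yet its profile lay 0.14 from Igtp and 1.86 to 1.99 from the other effectors.

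Over all genes tested and by the same measure, the genes most like the mean profile of the 7 were Ifi209 (0.106), Zbp1 (0.126), Trim30c (0.178), Phf11d (0.186) and the family gene Iigp1c (0.204). For single members the nearest gene outside the 7 was Ifi204 for Irgm1 (0.0587), Herc6 for Irgm2 (0.0543), Gbp9 for Igtp (0.0846), Gbp7 for Ifi47 (0.0838), Ifit3 for Iigp1 (0.305), Ifi44 for Tgtp2 (0.28) and H2-Q6 for Tgtp1 (0.445). Ifi209, a member of the DNA-sensing Ifi200 family, went from 15.9 ± 3.60 CPM in untreated control to 974 ± 119 with Ifnb1eGFP supernatant and 913 ± 44.4 with rIFNβ. Zbp1, a sensor of unusual nucleic acids, went from 4.05 ± 0.674 to 261 ± 10.6 and 282 ± 11.5 CPM (mean ± SD, n = 3 libraries each).

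The rest of the family was looked up by a list of 22 names, of which 11 were in the matrix and 9 were tested. Between the supernatants 8 of 9 rose and 1 fell at an edgeR adjusted p of 0.05, with the same counts for rIFNβ, and all 8 rises passed the stricter threshold. Over all genes tested, 30.1% were higher, 25% lower and 2.77% higher past the stricter threshold between the supernatants, and 30.7%, 24.6% and 2.99% with rIFNβ. The median log2 fold change of the 9 was 2.99 between the supernatants and 2.93 with rIFNβ. Without eGFP supernatant replicate 2, 10 were tested and the median between the supernatants was 3.48. The gene added there was Gm4841, with 0 to 1 counts per library without IFNβ. A difference was thus built into its place, and the medians with and without that library cover different genes. On chromosome 18, near Iigp1, F830016B08Rik gave 5.27 (SE 0.30, edgeR adjusted p = 5.354e-08) and Iigp1c 4.84 (SE 0.43) between the supernatants. On chromosome 11 Gm12250 gave 3.74, Gm5431 3.38, the pseudogene Gm12187 2.99, Gm12185 2.75, 9930111J21Rik1 2.68 and 9930111J21Rik2 2.22. Several of these already had substantial levels without IFNβ: 9930111J21Rik2 had 56.7 to 72.6 CPM in untreated control and 268 to 370 with Ifnb1eGFP supernatant.

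The 1 that fell, Irgq, is a divergent relative outside both branches and lies on chromosome 7. It had 25.4 to 28.2 CPM in untreated control, 24.4 to 29.8 with eGFP supernatant, 18.5 to 21.5 with Ifnb1eGFP supernatant and 18.9 to 21.5 with rIFNβ, and its log2 fold change between the supernatants was -0.46 (SE 0.087, edgeR adjusted p = 0.000925). Irgc, a relative known from testis, had too few counts to be tested, 5 to 11 per library without IFNβ and 0 to 2 with it. Gm4841 was not tested in the fit of all 12 libraries either, with 0 to 1 counts without IFNβ and 5 to 12 with it.

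Genes within 100000 bases of each locus were read next, chosen by position after their values had been seen. In the Irgm1 to Ifi47 cluster 17 genes were tested. Outside the family, Rack1 (-0.04) and Trim41 (0.34) beyond its Irgm1 end and Btnl9 (0.36) beyond its Ifi47 end gave small log2 fold changes between the supernatants. Also beyond the Irgm1 end, Trim7 fell by 1.46 (edgeR adjusted p = 3.17e-05), and the noncoding gene Gm16170, which overlaps Trim7 on the opposite strand and lies closest to Irgm1, fell by 1.42 (edgeR adjusted p = 0.0199). Cdk2ap1rt, which overlaps the other end of Trim7, gave -0.93 (edgeR adjusted p = 0.0872). Between the members, Psme2b, a gene of the proteasome activator family, rose by 2.21, and the olfactory receptor gene Or2v1, annotated across Tgtp2 and Ifi47, rose by 3.68, with exon bases shared with Ifi47 as given above. Around Igtp and Irgm2 the tested genes outside the family gave 0.05 to 0.45. Beside Iigp1 the pseudogene BC023105 rose by 6.89 and the noncoding gene Gm50237 by 5.03, whereas Smim3 fell by 0.42 on the log2 scale (edgeR adjusted p = 0.0061). Gm50237 is annotated across the family gene F830016B08Rik on the opposite strand, and whether reads were shared was not tested. For these genes outside the family, it was not tested whether any passed the filter on low counts only through the libraries that received IFNβ.

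**Figure D5:**
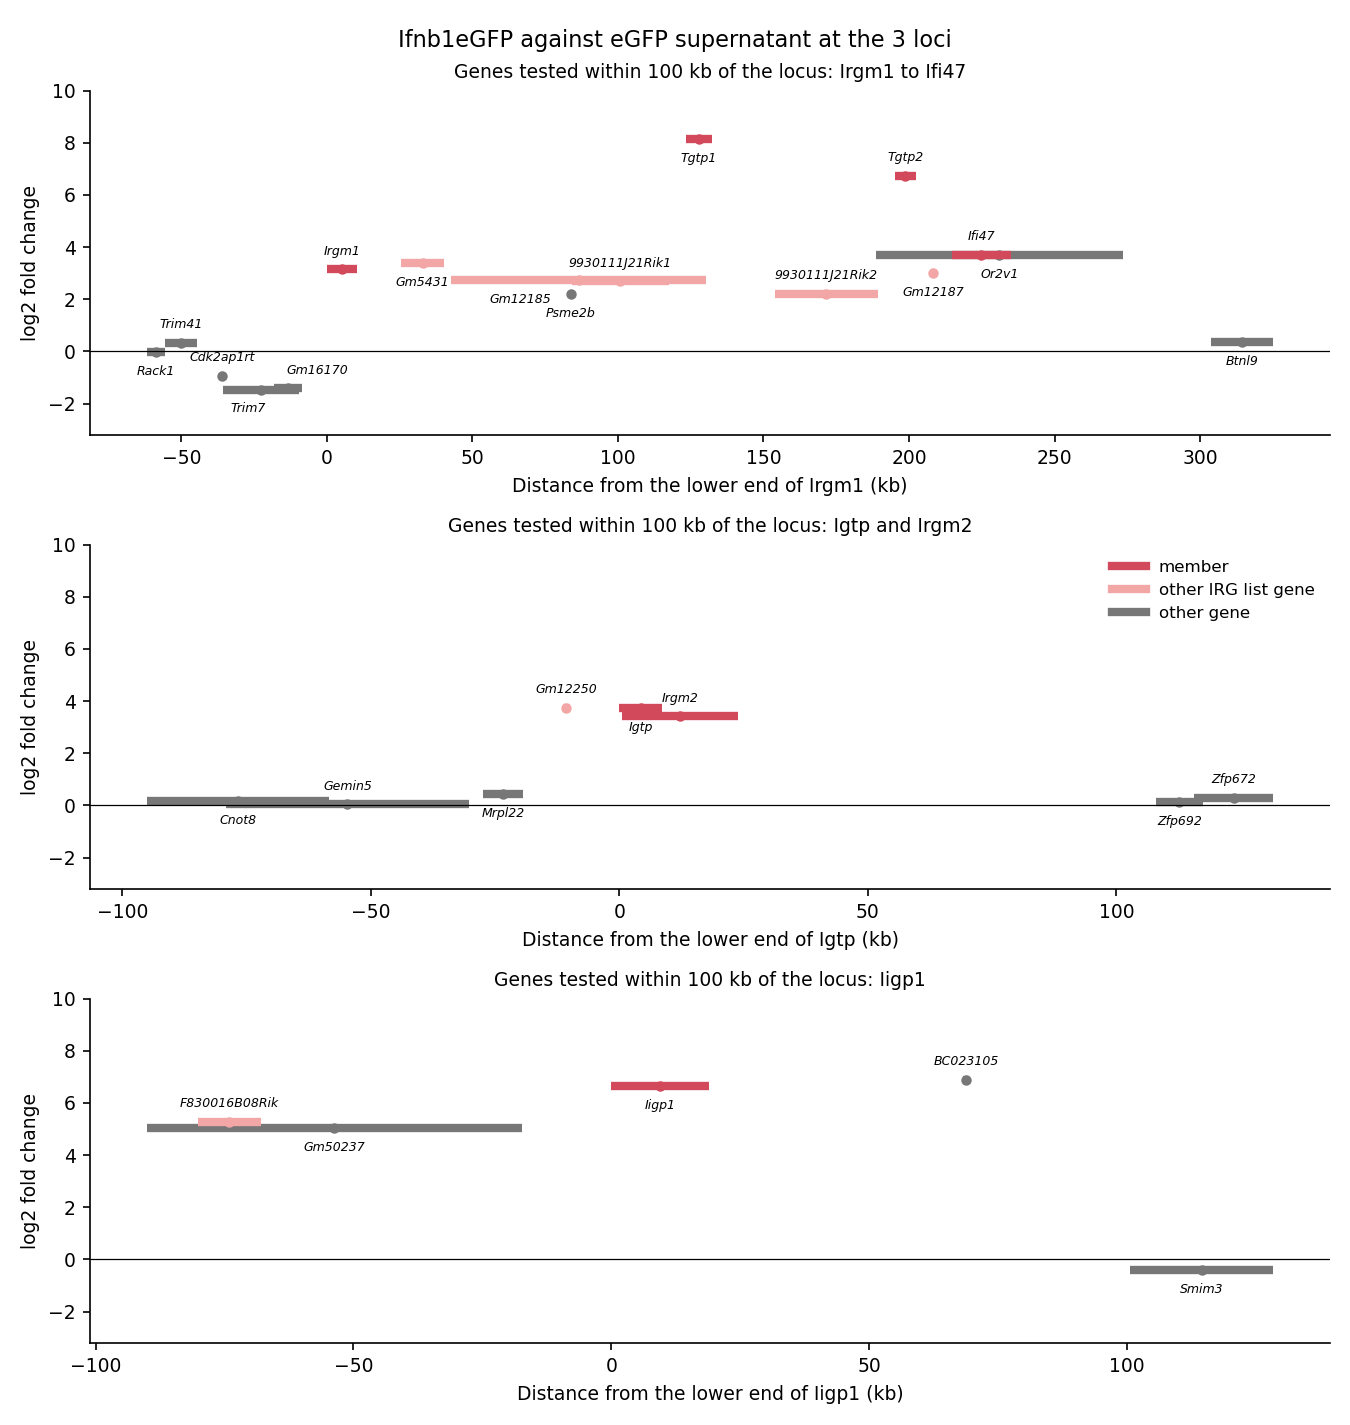
Log2 fold change of Ifnb1eGFP over eGFP supernatant (y axis) for every gene tested within 100 kb of the 3 loci, drawn over its span as distance in kb from the lower end of Irgm1, Igtp or Iigp1 (x axis). Members (red) and other family genes (pink) lie between 2.22 and 8.13; genes outside the family (grey) range from -1.46 (Trim7) to 6.89 (BC023105).

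Interferon signalling itself was read from a list of 19 genes, 17 of them tested. Between the supernatants 11 rose and 2 fell at an edgeR adjusted p of 0.05, and with rIFNβ 12 rose and 3 fell, beside 30.1% higher and 25% lower, and 30.7% higher and 24.6% lower, over all genes. The inducers themselves were not transcribed here to a detectable degree: Ifng had 1 count and Ifnb1 1 count over all 12 libraries. Of the factors that act on the interferon-stimulated element, Stat2 rose by 3.08 (SE 0.30, edgeR adjusted p = 4.929e-06) and Irf9 by 1.4996 (SE 0.14) on the log2 scale between the supernatants. Irf1, a factor that also acts on such elements, rose by 1.71 (SE 0.15), Irf7 by 6.15 (SE 0.64) and the kinase Jak2 by 1.27 (SE 0.06). The largest log2 fold change of the list, 6.15 with all libraries, was 7.40 without eGFP supernatant replicate 2. Irf2, which competes with Irf1, rose by 0.75 (SE 0.04), and the interferon-induced factor Batf2 by 1.96 (SE 0.12).

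The guanylate-binding proteins (Gbp), the larger GTPases that work beside the IRG proteins on the same vacuoles, rose as well. Of 11 tested, Gbp2b, Gbp10 and Gbp11 had at most 3 counts in any library without IFNβ and passed the filter on low counts only through the libraries that received it, so a difference was built into their place. By edgeR's test the other 8 of 8 were higher in both comparisons at an adjusted p of 0.05 and past the stricter threshold, beside 30.1% and 2.77% of all genes between the supernatants and 30.7% and 2.99% with rIFNβ. Their median log2 fold changes were 4.65 between the supernatants and 5.54 with rIFNβ. Over all 11, those 3 included, the median between the supernatants was 4.80 with eGFP supernatant replicate 2 and 5.30 without it. Gbp4 gave 6.72 (SE 0.22) and Gbp8 4.80 (SE 0.20) between the supernatants, while Gbp10 went from 0 to 3 counts per library without IFNβ to 278 to 464 with Ifnb1eGFP supernatant. Gbp6 went from 1.97 ± 0.317 CPM in untreated control to 297 ± 24.8 with Ifnb1eGFP supernatant and 321 ± 19.3 with rIFNβ, and Gbp3 from 5.47 ± 0.689 to 247 ± 33.8 and 261 ± 18.3 CPM (mean ± SD, n = 3 libraries each).

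The autophagy proteins that attach Atg8 family proteins to membranes are needed to bring IRG effectors to vacuoles. A list of 15 genes around them, all tested, held parts of the attachment machinery, Atg8 family genes and the ubiquitin-linked genes Sqstm1, Traf6 and Trim21. Of the 15, 7 rose and 5 fell between the supernatants and 5 rose and 5 fell with rIFNβ at an edgeR adjusted p of 0.05, beside the shares of all genes given above, and 1 passed the stricter threshold in each. It was Trim21, an antibody receptor and ubiquitin ligase, with a log2 fold change of 2.17 (SE 0.09, edgeR adjusted p = 6.055e-09) between the supernatants. Of the machinery, Atg3 rose by 0.21, Atg10 by 0.23, Atg16l1 by 0.34 and Atg4b, the protease that trims Atg8 proteins, by 0.15, Atg7 fell by 0.38, and Atg5 and Atg12 were not called. The other 4 falls were Atg8 family genes. The ubiquitin-binding adaptor Sqstm1 rose by 0.70 (SE 0.06), while the Atg8 family gene Gabarapl1 fell by 0.87 (SE 0.05) on the log2 scale. Gabarap, another gene of that family, gave 0.01 (SE 0.04, edgeR adjusted p = 0.794). The median of the list was 0.02 between the supernatants, beside 0.03 over all genes. Without eGFP supernatant replicate 2, 5 rose and 5 fell between the supernatants, beside 47.9% of all genes called in either direction.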

How the data were processed

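Expected counts per Ensembl gene, made by the authors with RSEM 1.3.3 from TruSeq Stranded Total RNA libraries, were deposited without normalization; 12% of the values were not whole and all were rounded. The genome is named in the methods by joining GRCm39 with mm10, 2 different builds; positions here are those of GRCm39. Columns were assigned by the sample descriptions, with 0 left over. Genes passing filterByExpr (15033 of 56748) were scaled by TMM factors in edgeR 4.0.16 (R 4.3.3), and 1 quasi-likelihood model was fitted over the 12 libraries. Each comparison used the quasi-likelihood F test of edgeR, and its p values were adjusted by Benjamini-Hochberg over the genes tested. A gene was called when its adjusted p did not exceed 0.05; the stricter threshold asked for a log2 fold change of 2 or more in size and an adjusted p no higher than 0.01. Standard errors are the log2 fold change divided by the square root of F. The label number of a library names a replicate, and what it stands for is not given in the sources used here. The model was tested on simulated data.

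The members and the gene lists were chosen with earlier results of these data known. The text names all 7 members, every other family gene in the matrix, from each further list those with the smallest adjusted p between the supernatants or the largest mean CPM, fixed interferon genes, and the genes most like the members. Alternatives were DESeq2 1.42.0, RLE factors, no filter, a replicate block, only the compared conditions, each library left out, Tgtp1 and Tgtp2 summed, and, for levels, the longest transcript. Promoters came from RefSeq (GRCm38.p6 in the table) and were matched exactly to GRCm39. Proteins were not used here, and some results are not reported here.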

Additional observations from a re-analysis of the deposited data

How the results depend on the processing

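Across DESeq2, RLE factors, no filter, the replicate block, only the compared conditions, each library left out, Tgtp1 and Tgtp2 summed, and the block without eGFP supernatant replicate 2 (added after the data were seen), all 132 values of single members kept direction and call between the supernatants, and all 132 for rIFNβ against untreated control (largest adjusted p = 0.0005074 and 1.563e-05). Counts of members called were 7, 7, 0 and 0 in the 4 comparisons of conditions under these alternatives, except with Tgtp1 and Tgtp2 summed, where they were 6 of 6, 6 of 6, 0 and 0. These values and counts include Tgtp1, which passed the main filter on low counts only through the libraries that received IFNβ. For the interaction, not fitted with only the compared conditions, they were 0. The replicate block changed none of them; libraries with the same number deviated together (mean r = 0.148, 0.0582 to 0.252, over 0.1 in 13 of 18 pairs), and all 12 correlated best with their own number, a hint from the data only.

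Differences between Ifnb1eGFP supernatant and rIFNβ were near 0 and changed sign in 22 of 132 values without a call (adjusted p 0.527 to 1). Leaving out each library gave -0.0296 to 0.119 for Irgm1, -0.0485 to 0.0756 for Irgm2, -0.0549 to 0.0779 for Igtp, -0.0487 to 0.138 for Iigp1, -0.0374 to 0.0737 for Ifi47, -0.128 to 0.15 for Tgtp1 and -0.0966 to 0.0562 for Tgtp2. Tgtp1 turned to 0.0126 with DESeq2, 0.0134 with RLE factors, 0.0063 without a filter and 0.0084 with only the compared conditions, and Tgtp2 to 0.0060, 0.0062 and 0.0020 with the first, second and last of these. For eGFP supernatant against untreated control, Tgtp1 turned to -0.64 without eGFP supernatant replicate 2 and to -0.76 with the block added; it ranged to 0.67 without eGFP supernatant replicate 3, and was not tested with only those conditions in the fit. The interaction turned to 0.64 and 0.74 for Tgtp1 in these settings (lowest -0.67 without eGFP supernatant replicate 3), and to 0.0097 for Ifi47 with the block and without eGFP supernatant replicate 2. DESeq2 called 1 interferon signalling gene between both sources of IFNβ in place of 0; the cause was not tested. With the longest transcript as the length, 5 of 7 members kept their place per length in each condition. Depth limits Tgtp1 most, with 3 to 14 counts per library without IFNβ.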
